A study of Mus musculus with 6 samples.

Results

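The genes of the T cell receptor complex and its co-receptors were followed through RNA sequencing of atherosclerotic brachiocephalic arteries from 3 wild type (WT) and 3 Col15a1 -/- (KO) mice. The 10 members were taken by gene name from a count table of 24391 genes: the CD3 chain genes Cd3d, Cd3e and Cd3g, the co-receptor genes Cd4 and Cd8a, the kinase gene Lck, the adhesion and costimulation genes Cd2, Cd28 and Cd5, and the cytokine receptor gene Il7r. All 10 were in the table, and all 10 passed the filter on low counts that left 15937 genes for testing. Both groups had a C57BL/6 background and ate a Western diet for 18 weeks, each library came from 1 of 3 animals per group, and the artery was flash frozen as lesion tissue of mixed cells. The title of the series places the deletion in smooth muscle cells, although the genotype is labelled only as Col15a1 -/-, so T cells were not the labelled target. The Cre driver, the age and the sex of the mice are not given in the sources used here. The comparison asked how the KO lesion transcriptome differed from the WT one.

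The T cell receptor has no signalling domain of its own. It signals through the CD3 chains, whose tails are phosphorylated by Lck, a kinase that the co-receptors CD4 and CD8 bring to the receptor when they bind the MHC molecule of the presenting cell. CD28 adds the costimulatory signal, CD2 strengthens adhesion to the partner cell, CD5 dampens the signal, and the interleukin 7 receptor keeps resting T cells alive. In atherosclerotic arteries T cells are found in the plaque and in the adventitia, where they are far fewer than macrophages. Only the CD3 chains are close to specific for T cells: mouse CD4 is also carried by some dendritic cells, CD2 and CD5 by B cells, and the interleukin 7 receptor by lymphocyte precursors and innate lymphoid cells.

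Total counts ran from 22223584 to 26982005 per library. Col15a1, the targeted gene, had 12111 to 12973 counts in WT and 2307 to 4542 in KO. Smooth muscle markers (5 genes) summed to 5166 to 13744 CPM (counts scaled to a common library total, and for composition by the TMM method), macrophage and dendritic cell markers (10 genes) to 1014 to 4760 CPM, and epithelial markers (4 genes), a cell type the labels list, only to 12.4 to 19.8 CPM. WT 2 and KO 3 stood apart, with 1739 and 3582 CPM of sympathetic neuron markers (6 genes) against 127 to 186 CPM in the other libraries. Fold changes of the members, and of other genes that moved most, are also given without these libraries.

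The start sites of the CD3 genes and of the members whose groups did not overlap, Cd5 and Il7r, are shown to set these genes in their genomic place. The 3 CD3 genes lie together within 40019 bases of chromosome 9 (mm9). Cd3g (44777655 to 44788514, minus strand) and Cd3d (44789869 to 44795135, plus strand) start head to head, 1354 bases apart, and Cd3e (44806826 to 44817673, minus strand) follows 11690 bases further on. Counts of each gene were summed over its exons. RefSeq's promoter table (GRCm38.p6, another build than the counts) held 7 of the 10 members, and the windows below run from 250 bases before the start to 50 after it, 5′ to 3′ on the strand of the gene. Capitals mark the ETS core GGAAGT and the E-box CACCTG, read on both strands, motifs of transcription factor families that act in lymphocytes. The windows are chr9:44981536-44981835 for Cd3d, chr9:45009562-45009861 for Cd3e, chr9:44980382-44980681 for Cd3g, chr19:10738925-10739224 for Cd5 and chr15:9529827-9530126 for Il7r.
Cd3d: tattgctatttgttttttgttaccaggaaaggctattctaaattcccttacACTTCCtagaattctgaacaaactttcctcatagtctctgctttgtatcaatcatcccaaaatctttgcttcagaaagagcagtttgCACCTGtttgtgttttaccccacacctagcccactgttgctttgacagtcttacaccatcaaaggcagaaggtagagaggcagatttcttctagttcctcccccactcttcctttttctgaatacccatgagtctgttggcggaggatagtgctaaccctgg
Cd3e: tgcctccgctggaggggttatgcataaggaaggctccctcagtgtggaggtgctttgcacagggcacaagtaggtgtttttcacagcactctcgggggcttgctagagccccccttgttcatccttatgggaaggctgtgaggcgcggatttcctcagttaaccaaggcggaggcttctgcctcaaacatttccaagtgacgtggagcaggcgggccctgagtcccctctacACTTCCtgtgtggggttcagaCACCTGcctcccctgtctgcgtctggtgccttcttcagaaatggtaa
Cd3g: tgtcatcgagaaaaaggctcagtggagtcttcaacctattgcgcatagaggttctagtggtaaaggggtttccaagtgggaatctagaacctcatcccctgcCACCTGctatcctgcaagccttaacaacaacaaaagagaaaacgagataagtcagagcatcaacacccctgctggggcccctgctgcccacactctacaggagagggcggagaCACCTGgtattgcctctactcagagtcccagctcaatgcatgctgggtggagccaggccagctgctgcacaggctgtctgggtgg
Cd5: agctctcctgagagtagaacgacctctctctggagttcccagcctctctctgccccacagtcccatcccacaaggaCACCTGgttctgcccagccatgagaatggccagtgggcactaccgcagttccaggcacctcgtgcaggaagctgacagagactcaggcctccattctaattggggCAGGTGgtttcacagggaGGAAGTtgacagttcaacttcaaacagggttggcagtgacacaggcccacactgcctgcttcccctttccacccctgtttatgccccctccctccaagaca
Il7r: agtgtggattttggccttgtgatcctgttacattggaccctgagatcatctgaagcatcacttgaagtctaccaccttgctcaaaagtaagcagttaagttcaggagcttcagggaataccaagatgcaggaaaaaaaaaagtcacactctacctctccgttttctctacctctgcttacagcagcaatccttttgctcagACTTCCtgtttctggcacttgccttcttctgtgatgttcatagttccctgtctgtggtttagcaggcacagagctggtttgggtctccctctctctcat
GGAAGT was present in 6 of the 8 windows of members (Lck has 2 windows), and in 23.8% of all 32851 windows of this length. CACCTG was likewise present in 6 of the 8, against 20.2% of all windows. The RUNX motif TGTGGT was found in 2 of the 8 (16.8% of all windows), and TATAAA in 0 of the 8 (13.6% of all windows). The Il7r window held GGAAGT but not CACCTG, and the Cd3g window held CACCTG 2 times and no GGAAGT. All 4 motifs were chosen after the sequences were seen, and a match is a description of the letters, not a binding site.

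T cell transcripts were scarce in all arteries. Per library, the 9 members other than Il7r had 5 to 273 counts, while Il7r had 188 to 2267. Per kilobase of exon, Il7r stood highest in WT at 22.1 ± 4.5 CPM per kb (SD, n = 3), above Cd4 at 2.99 ± 0.63 CPM per kb without overlap. Cd3g was next at 2.92 ± 0.87 CPM per kb and overlapped Cd4. Below these came Cd2 (1.83 ± 0.098 CPM per kb), Lck (1.81 ± 0.40), Cd5 (1.48 ± 0.13), Cd8a (1.23 ± 0.47), Cd3d (1.21 ± 0.27), Cd28 (1.12 ± 0.36) and Cd3e (1.03 ± 0.24). From Cd2 to Cd3e each neighbour in this order overlapped the next, while Cd3g lay above Cd2 in every pairing of WT libraries. In KO the first 6 genes kept this order, from Il7r at 11.2 ± 8.2 to Cd5 at 0.949 ± 0.43 CPM per kb. Across the KO libraries the range of every neighbour overlapped the next, as KO 3 was low for all members. Within each KO library Il7r still stood above Cd4, at 18.4, 12.9 and 2.31 against 1.95, 3.31 and 0.662 CPM per kb.

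The CD3 chains, which carry the signal of the receptor, had few counts and overlapping groups. Given in the order of replicates 1 to 3, Cd3d had 29, 45 and 52 counts in WT and 33, 34 and 5 in KO, which is 1.32, 1.51 and 2.01 CPM in WT against 1.42, 1.48 and 0.197 CPM in KO. KO 1 and KO 2 lay within the WT range and KO 3 far below it, where 5 counts have an exact 95% Poisson interval of 1.62 to 11.7 counts. Its log2 fold change was -0.65 (SE 0.68, 95% interval -2.30 to 1.01), with an adjusted p of 0.870 in edgeR's quasi-likelihood test over all genes. Cd3e had 24, 48 and 45 counts in WT and 42, 41 and 8 in KO, or 1.09, 1.61 and 1.74 CPM against 1.81, 1.79 and 0.315 CPM. For this gene KO 1 and KO 2 were just above every WT library, and KO 3 was below every one. The gap of KO 1 and KO 2 to WT 3 lay within counting error. The standard error of counting was 15.4% in KO 1, 15.6% in KO 2 and 14.9% in WT 3. The log2 fold change was -0.19 (SE 0.63, edgeR adjusted p 0.941), and 0.28 without KO 3. Cd3g had 57, 119 and 61 counts in WT and 48, 69 and 14 in KO, or 2.59, 4.0 and 2.36 CPM against 2.07, 3.01 and 0.552 CPM. WT 2 was the highest library and KO 2 lay above WT 1 and WT 3. Its log2 fold change was -0.67 (SE 0.60, edgeR adjusted p 0.842), -0.23 without KO 3 and 0.028 without WT 2 and KO 3. Summed, the 3 chains were at 6.08 ± 1.1 CPM in WT against 4.22 ± 2.8 CPM in KO (SD, n = 3 each), with 5.30 and 6.28 CPM in KO 1 and KO 2 and 1.06 CPM in KO 3.

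The co-receptors and the kinase they carry also had overlapping groups, with KO 3 lowest. Cd4, the co-receptor of helper T cells, was at 10.2, 7.02 and 10.5 CPM in WT against at 6.04, 10.3 and 2.05 CPM in KO, from 52 to 273 counts. KO 2 was level with the higher WT libraries, while KO 1 and KO 3 were below all of them. Cd8a, a chain of the co-receptor of cytotoxic T cells, was at 2.46, 3.73 and 5.37 CPM in WT against 3.02, 4.54 and 0.867 CPM in KO, from 22 to 139 counts. Only KO 3 lay outside its WT range. Lck was at 3.91, 3.39 and 5.18 CPM in WT against 2.80, 4.89 and 1.73 CPM in KO, from 44 to 134 counts. For Lck, KO 1 and KO 3 were below every WT library and KO 2 was above 2 of the 3. Their log2 fold changes were -0.60 (SE 0.55) for Cd4, -0.46 (SE 0.61) for Cd8a and -0.41 (SE 0.41) for Lck, with edgeR adjusted p of 0.851, 0.908 and 0.866. The ratio of Cd4 to Cd8a per kilobase was 4.20, 1.90 and 1.99 over the WT libraries and 2.02, 2.29 and 2.39 over the KO libraries, so the KO values lay inside the WT range.

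Of the adhesion and costimulation genes, Cd5 had no overlap between groups. Cd5, a negative regulator of receptor signalling, was at 2.86, 3.36 and 2.98 CPM in WT against 2.50, 2.44 and 0.946 CPM in KO, from 24 to 100 counts. The 3 WT libraries were close together, KO 1 and KO 2 were just below them and KO 3 was lowest. The log2 fold change of Cd5 was -0.64 (SE 0.39), with an unadjusted p of 0.153, the smallest of the 10 members, and an adjusted p of 0.726 in edgeR. Cd2 was at 2.05, 2.22 and 2.01 CPM in WT against 1.16, 2.62 and 0.946 CPM in KO, from 24 to 66 counts, and KO 2 was its highest library of all. Cd28 was at 4.55, 3.43 and 6.49 CPM in WT against 4.05, 4.28 and 1.46 CPM in KO, from 37 to 168 counts, with KO 1 and KO 2 inside the WT range. The log2 fold changes were -0.41 (SE 0.42) for Cd2 and -0.56 (SE 0.46) for Cd28, with edgeR adjusted p of 0.866 and 0.817.

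Il7r, which encodes the interleukin 7 receptor alpha chain, was the most abundant member and had the lowest log2 fold change. It was at 60.7, 64.6 and 87.6 CPM in WT against 59.1, 41.4 and 7.41 CPM in KO. The groups did not overlap, but KO 1 was just below WT 1 and KO 3 was far below all others. The log2 fold change was -0.98 (SE 0.68, 95% interval -2.63 to 0.67), a 1.97-fold lower fitted level in KO, with an adjusted p of 0.767 in edgeR; leaving out KO 3 gave -0.50, and leaving out WT 2 as well gave -0.57. Il7r did not keep a fixed ratio to the CD3 chains: its level was 9.06 to 14.3 times their sum in WT and 6.58 to 11.1 times in KO. The chain also forms the receptor of TSLP together with the product of Crlf2, which was at 33.0 ± 4.6 CPM in WT against 19.3 ± 6.8 CPM in KO (SD, n = 3 each; edgeR adjusted p 0.607).

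**Figure D1:**
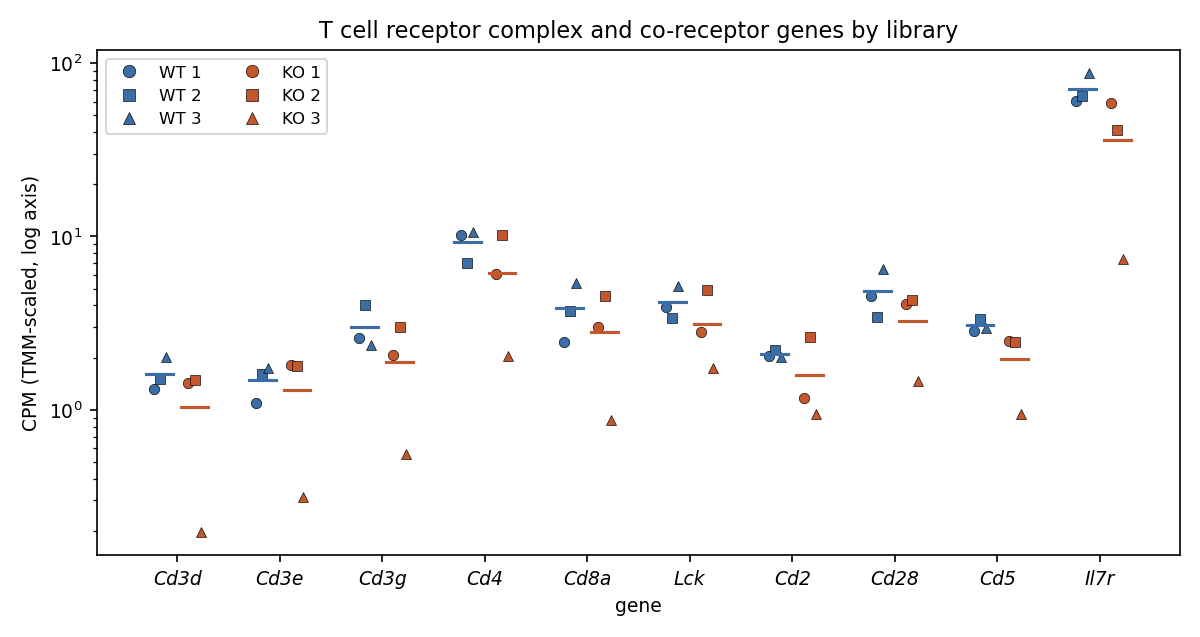
CPM of the 10 members in each library on a log axis, with WT in blue, KO in orange, a marker shape for each replicate number and a bar at the group mean. KO 3 (orange triangles) is the lowest library for every gene. KO 1 and KO 2 lie inside the WT range for Cd3d, Cd8a and Cd28, and above it for Cd3e by less than counting error. Cd5 and Il7r are the genes with no overlap.

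Read together, the log2 fold change was below 0 for all 10 members (median -0.58), and none passed. Over all genes tested, 39.1% had a negative log2 fold change and the median was 0.068. The edgeR test called 0 members and 0% of all genes at an adjusted p of 0.05. At an unadjusted p under 0.05 it gave 0 members, against 8% of all genes, and DESeq2 gave 0 members at that level and called 0 of them after adjustment (smallest adjusted p 0.717), against 0.347% of all genes called. The groups did not overlap, with WT above, for 2 of 10 members and for 8.38% of all genes. The 95% intervals of all 10 members include 0, and the narrowest, that of Cd5, runs from -1.61 to 0.32, so neither a clear loss nor an equal level could be shown with these libraries. In whole arteries, fewer T cells and less of a transcript per T cell cannot be told apart.

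A single library carried most of the difference. KO 3 was the lowest of the 6 libraries for 10 of 10 members and for 26.2% of all genes tested. Against the mean of KO 1 and KO 2 its level was 7.37 times lower for Cd3d, 6.78 times for Il7r, 5.71 times for Cd3e, 4.60 times for Cd3g, 4.36 times for Cd8a and 3.97 times for Cd4. It was 2.85 times lower for Cd28, 2.61 times for Cd5, 2.22 times for Lck and 2.00 times for Cd2. By the same measure it was 2.35 times lower for the pan-leukocyte gene Ptprc. For the macrophage genes Cd68 and Csf1r it was 4.10 and 1.34 times lower. Lower levels in KO 3 were thus also seen outside the members, but to unlike degrees. The pan-leukocyte gene Coro1a was at 59.4 and 66.3 CPM in KO 1 and KO 2 and at 57.2 CPM in KO 3. Without KO 3 the median log2 fold change of the members was -0.17, with 9 of 10 negative against 50.5% of all genes. Without WT 2 and KO 3 it was -0.23, with 8 of 10 negative against 49.5% of all genes. In that fit Cd4 was at -0.36, Cd28 at -0.42, Lck at -0.26, Cd5 at -0.25, Cd3d at -0.21, Cd2 at -0.11 and Cd8a at -0.070 on the log2 fold change scale. KO 3 also had the highest neuron marker level. WT 2, the other library with many neuron transcripts, was mixed: it was the highest of the 6 libraries for Cd3g, Cd5 and the CD3 sum (7.13 CPM), and the lowest WT library for Cd4, Lck and Cd28. Over the 6 libraries the correlation of the members with the neuron list was negative for all 10, from -0.45 for Cd2 to -0.82 for Cd28, a description that shares the KO 3 point. The part of the neuron transcripts in the low values of KO 3 was not tested.

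**Figure D2:**
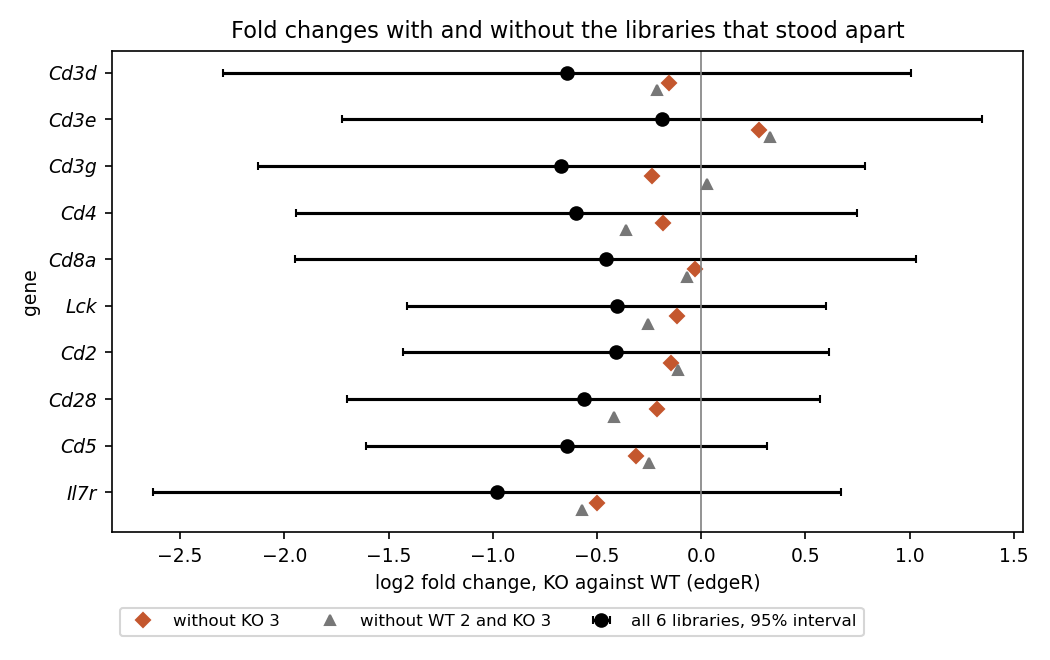
Log2 fold change of each member, KO against WT, with the 95% interval from all 6 libraries (black), and the same value without KO 3 (orange diamonds) and without WT 2 and KO 3 (grey triangles). All black intervals cross 0, and every value moves toward 0 or past it without KO 3, to 0.28 for Cd3e.

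Pan-leukocyte transcripts had lower values in KO too, without passing the test, and the members were set against Ptprc, which encodes CD45 and is expressed by all leukocytes. Ptprc was at 231, 273 and 249 CPM in WT against 184, 167 and 74.6 CPM in KO, without overlap (log2 fold change -0.82, SE 0.34, edgeR adjusted p 0.617). Per 100 CPM of Ptprc, the CD3 chains summed to 2.41 ± 0.22 CPM in WT against 2.69 ± 1.2 CPM in KO (SD, n = 3 each), with 2.88 in KO 1, 3.76 in KO 2 and 1.43 in KO 3. KO 1 and KO 2 were thus above the WT range of 2.17 to 2.61, and KO 3 below it. These positions carry counting error. The CD3 sums rest on 123 counts in KO 1, 144 in KO 2 and 27 in KO 3, against 212 in WT 2. On the same scale Cd5 was at 1.22 ± 0.025 in WT and 1.36 ± 0.096 in KO, with the lowest KO value above the highest WT value, and the other 9 members overlapped. The order of the Cd5 groups was thus turned by the choice of denominator. The gap was narrow, from 1.24 in WT 1 to 1.27 in KO 3. It lay within counting error, as Cd5 in KO 3 rests on 24 counts with a standard error of 20.4%. The share of all genes without overlap on this scale was not computed. Il7r was at 28.3 ± 6.0 in WT and 22.3 ± 11 in KO, with 9.94 in KO 3. These ratios were not tested, and macrophages also contribute to Ptprc.

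**Figure D3:**
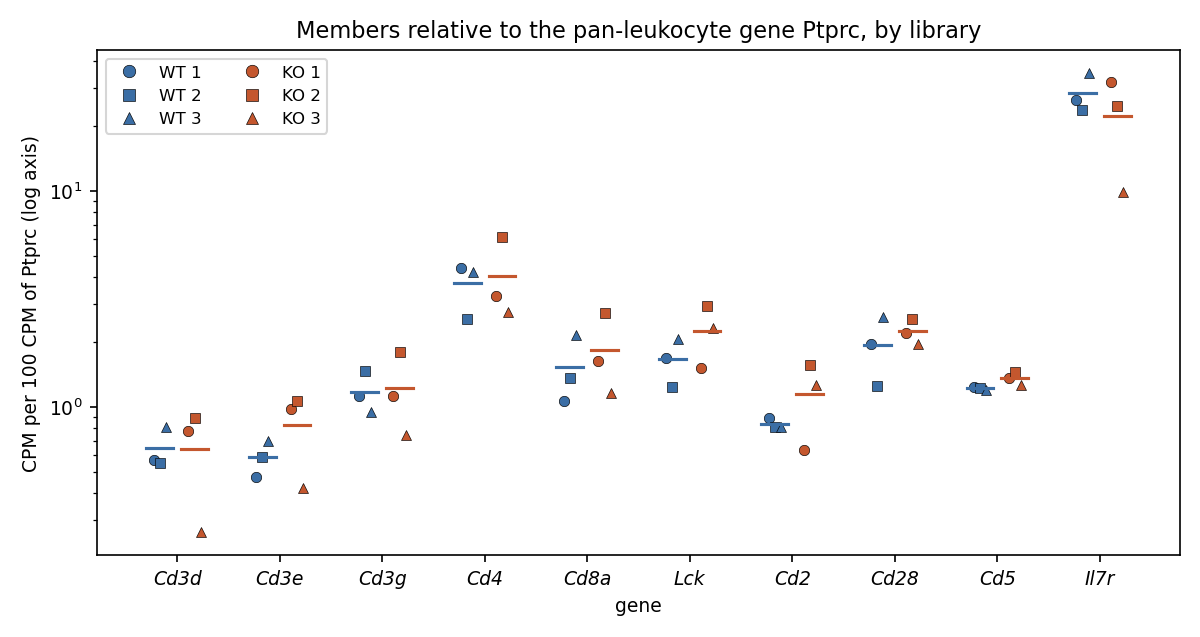
Level of each member per 100 CPM of Ptprc in each library on a log axis, with colours, shapes and mean bars by group and replicate as labelled. The groups overlap for 9 genes, KO 2 is the highest library for 8 of the 10, and the KO points of Cd5 lie just above its WT points.

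Other genes of the T cell programme were read from 5 lists of 86 genes in all, of which 81 were in the table and 72 were tested. Of the 72, 53 had a negative log2 fold change (median -0.40), and 14 had an unadjusted p under 0.05, all lower in KO, against 3.98% of all genes. None passed after adjustment. The 14 were Il2ra, Lcp2, Fyb, Ptprc, Vav1, Nfatc2, Ptpn22, Ikzf1, Nkg7, Ccl5, Ccr7, Cd86, Il2rg and Crlf2. Several are shared with myeloid cells, Ptprc is expressed by all leukocytes, and Cd86 belongs to presenting cells. The count of 14 therefore does not describe T cells alone. The receptor constant region genes of the list were not matched in the table.

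Among receptor chains and surface molecules, 11 of 13 tested genes were on the negative side (median -0.57). Il2ra, the interleukin 2 receptor alpha chain, was at 4.05, 10.5 and 3.98 CPM in WT against 2.50, 2.53 and 0.907 CPM in KO (log2 fold change -1.64, edgeR adjusted p 0.587). WT 2 stood above the other WT libraries, and without it the log2 fold change of Il2ra was -1.02. The checkpoint receptor gene Pdcd1 was at 2.57 ± 1.6 CPM in WT against 0.941 ± 0.48 CPM in KO, and Ly9, a SLAM family receptor gene, at 29.6 ± 4.9 and 15.9 ± 9.0 CPM (edgeR adjusted p 0.618 and 0.682). Pdcd1 had 4.44 CPM in WT 2 against 1.64 and 1.62 CPM in WT 1 and WT 3, and its log2 fold change of -1.45 came to -0.79 when WT 2 was left out. With both WT 2 and KO 3 left out, the log2 fold change was -0.68 for Il2ra, -0.43 for Pdcd1 and -0.63 for Ly9. Cd247, the zeta chain of the receptor complex, and Cd8b1, the partner of Cd8a, were named after their values were seen: they had log2 fold changes of -0.030 and -0.052. Cd247 was at 2.41, 2.52 and 3.05 CPM in WT against 3.28, 3.45 and 1.10 CPM in KO, so KO 1 and KO 2 exceeded every WT library. Thy1, which neurons express too, was highest in WT 2 (126 CPM) and KO 3 (224 CPM), the libraries with high neuron markers.

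Proximal signalling genes were negative in 17 of 23 (median -0.40), and 6 of them had an unadjusted p under 0.05. Lcp2, an adaptor below the receptor that myeloid cells also use, was at 28.1, 31.5 and 30.4 CPM in WT against 21.6, 19.4 and 15.9 CPM in KO, without overlap (log2 fold change -0.66, SE 0.15, edgeR adjusted p 0.587). The phosphatase gene Ptpn22 was at 8.50 to 11.02 CPM in WT against 4.73 to 6.94 CPM in KO and the transcription factor gene Nfatc2 at 27.1 ± 1.9 and 20.5 ± 1.5 CPM (edgeR adjusted p 0.587 each). Zap70, the gene of the kinase that binds the phosphorylated CD3 tails, was named after its values were seen: it was at 1.50, 2.69 and 2.55 CPM in WT against 0.949, 2.57 and 0.867 CPM in KO, and KO 2 lay inside the WT range.

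Transcription factors of T cells were split, with 7 of 14 on each side and a median of 0.012. Ikzf1, a factor of all lymphoid lineages, was at 38.1 ± 3.5 CPM in WT against 24.4 ± 6.9 CPM in KO and Runx3, a factor of CD8 T cells, at 7.06 ± 2.4 and 3.19 ± 1.8 CPM (edgeR adjusted p 0.598 and 0.656). Runx3 was highest in WT 2, and its log2 fold change of -1.15 came to -0.44 with WT 2 and KO 3 left out, while that of Ikzf1 went from -0.64 to -0.41. The T lineage factors Tcf7 and Bcl11b and the regulatory T cell factor Foxp3, named after their values were seen, had log2 fold changes of -0.0071, -0.031 and 0.077. Foxp3 was at 1.96, 2.92 and 3.01 CPM in WT against 2.89, 3.40 and 2.05 CPM in KO, and here KO 3 was not the lowest library.

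Effector and homing genes were on the negative side in 10 of 13 tested (median -0.77). Nkg7, a granule gene of cytotoxic lymphocytes, was at 1.36, 2.35 and 1.70 CPM in WT against 0.862, 0.480 and 0.315 CPM in KO, from 8 to 70 counts, and all 3 KO libraries were below WT (log2 fold change -1.71, SE 0.45, edgeR adjusted p 0.587). The chemokine gene Ccl5 was at 2.91 ± 0.89 CPM in WT against 1.19 ± 0.57 CPM in KO and the lymph node homing receptor gene Ccr7 at 4.07 ± 1.9 and 1.20 ± 0.76 CPM, both highest in WT 2 (edgeR adjusted p 0.587 each). Leaving out WT 2 and KO 3 moved the log2 fold change from -1.76 to -0.90 for Ccr7, from -1.29 to -0.75 for Ccl5 and from -1.71 to -1.20 for Nkg7. The cytokine genes Ifng, Il17a, Il4 and Il2 had too few counts to be tested.

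Ligands and partner chains were on the negative side in 8 of 9 (median -0.75). Cd86, a ligand of CD28 on presenting cells, was at 16.6, 26.3 and 14.6 CPM in WT against 11.2, 11.9 and 6.55 CPM in KO, without overlap (log2 fold change -0.96, edgeR adjusted p 0.587). WT 2 was its highest library, and leaving out WT 2 and KO 3 gave -0.45. Il2rg, the common gamma chain that pairs with the product of Il7r, was at 23.5 ± 3.6 and 13.7 ± 4.6 CPM, with a log2 fold change of -0.78 that came to -0.43 in the same way. Cd48, which encodes the mouse ligand of CD2, was at 28.7 ± 4.1 CPM in WT against 16.7 ± 6.6 CPM in KO, while the cytokine gene Il7 overlapped between groups at 3.63 ± 0.56 and 2.71 ± 1.1 CPM.

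Markers of other leukocytes were mostly on the same side as these genes, and those of other tissue cells on the opposite side. All 5 pan-leukocyte markers were lower in KO without overlap, with summed levels of 673 to 761 CPM in WT and 218 to 519 CPM in KO. The macrophage and dendritic cell list summed to 3861 to 4760 CPM in WT and 1014 to 3030 CPM in KO, and 7 of its 10 genes did not overlap. Over all genes tested, 8.38% did not overlap with WT above. B cell markers summed to 31.8 to 52.9 CPM in WT and 10.02 to 41.6 CPM in KO, with 4 of 8 genes on each side and KO 3 lowest. NK cell markers summed to 3.98 to 5.21 CPM in WT and 1.73 to 3.41 CPM in KO; 4 of 6 were tested and all 4 were negative, while Ncr1, a defining receptor gene, did not exceed 0.232 CPM. Adipocyte markers summed to 89.2 to 333 CPM in WT and 454 to 528 CPM in KO, with all 4 genes positive and 3 of them above WT without overlap. The share of all genes without overlap and KO above is not given here. Smooth muscle (5 of 5 genes), endothelial (4 of 4) and striated muscle markers (4 of 4) were also positive, with overlapping sums of 388 to 688 CPM in WT and 570 to 829 CPM in KO for endothelial and of 5.11 to 53.8 CPM and 7.81 to 104 CPM for striated muscle markers. None of these marker genes passed after adjustment. The part of these differences in tissue content in the values of the members was not tested.

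Some genes of the thymus marker list were detected in these arteries, mainly Rag1, Ccr9 and Dntt. The whole list summed to 5.41, 2.32 and 13.1 CPM in WT against 10.4, 25.6 and 3.67 CPM in KO. Of these sums, Ccr9 gave 3.09 CPM in WT 1, 1.55 CPM in WT 2 and 1.97 CPM in KO 3. Rag1, a recombinase gene of developing lymphocytes, had 14.9 CPM in KO 2, 6.57 in WT 3 and 5.002 in KO 1, and 0.269 to 1.73 CPM in the other libraries. Of the 8 markers 4 were tested, all 4 with a positive log2 fold change. Those not tested were near 0: per library, Ptcra had 0 to 4 counts, Aire 0 to 2 and Psmb11 0 to 8. The highest counts of Ptcra and Psmb11 were both in KO 2, and those of Aire in WT 2 and KO 3. The thymic epithelial gene Foxn1 had 0 counts in all 6 libraries. Among the members, KO 2, the highest library for Rag1, was the highest for Cd2. WT 3, the next for Rag1, was the highest for Cd3d, Cd4, Cd8a, Lck, Cd28 and Il7r. Cd3e was highest in KO 1, and Cd3g and Cd5 were highest in WT 2, where Rag1 was lowest at 0.269 CPM. The part of thymus-type transcripts in the members was not tested.

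**Figure D4:**
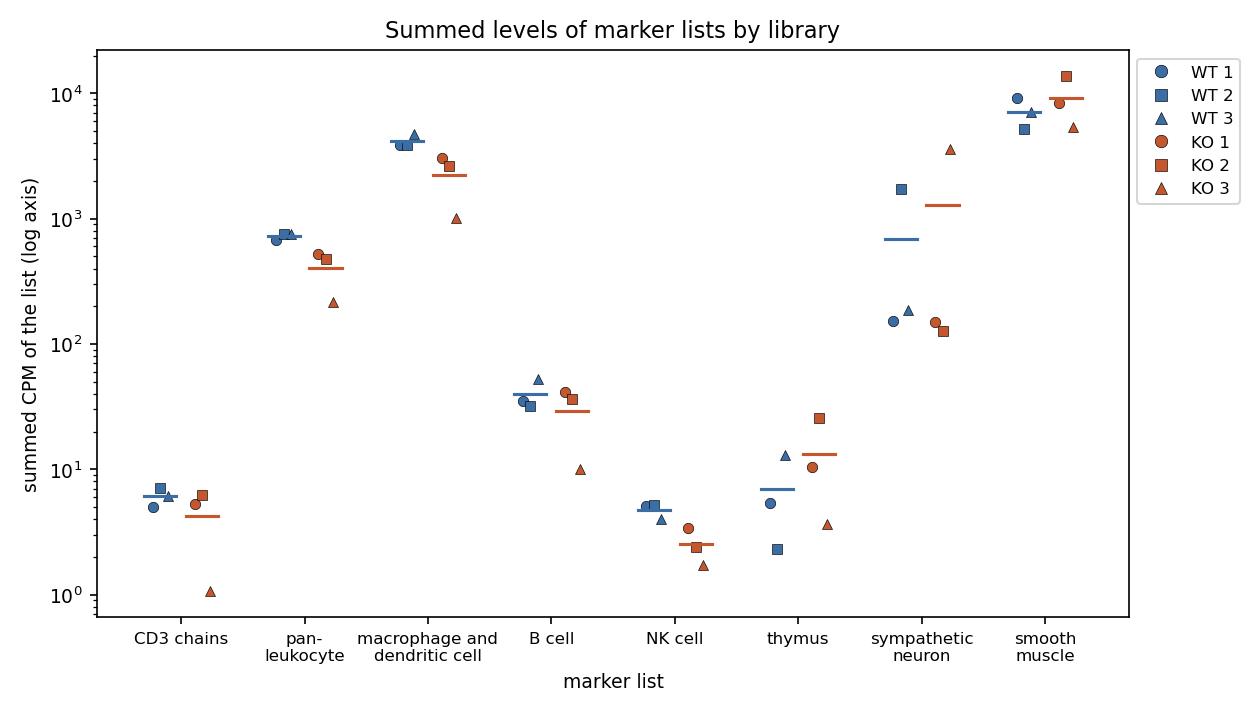
Summed CPM of the CD3 chains and of 7 marker lists in each library on a log axis, with colours, shapes and mean bars by group and replicate as labelled. Pan-leukocyte and macrophage lists separate WT from KO, the CD3 sum does not because KO 1 and KO 2 lie within the WT range, and the neuron list is high in WT 2 and KO 3 only.

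The members varied together across the 6 libraries. The Pearson correlation of log2 CPM was positive for all 45 pairs, from 0.66 (Cd2 and Il7r) to 0.98 (Cd3d and Il7r), with a median of 0.89. Cd2 was the least like the CD3 mean (0.77) and Cd5 the most like Ptprc (0.99). These values share the low point of KO 3 and describe only these libraries. Among 14697 other genes of at least 1 CPM on average, those most like the mean of the CD3 chains included Acap1 (r = 0.996), Nptx2 (0.991), Il23r, which encodes a receptor chain of interleukin 23 (0.991), and Klf6 (0.989). Klf6 varied on a far narrower scale, at 217 to 231 CPM in 5 libraries and 175 CPM in KO 3, and 592 of the 14697 genes had r above 0.9.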

How the data were processed

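RNA from brachiocephalic arteries of 3 WT and 3 KO mice was sequenced. The deposited values are raw read counts per gene. Per the file headers, featureCounts 1.4.6-p4 counted exons of the mm9 gene models of UCSC and summed them by gene name, with no strand option. Per the submitters' processing notes, CASAVA, STAR (3.0), Subread and DESeq2 were also used. Reads over exons of more than 1 gene were left out by this counting; among members, Lck shares exon positions with the microRNA gene Mir8119. The deposited exon length in bases, another column of the table, was used for levels per kilobase.

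KO was compared with WT by edgeR 4.0.16 in R 4.3.3 (glmQLFit, glmQLFTest, two-sided, TMM, filterByExpr with a minimum count of 10), with Benjamini-Hochberg adjustment over all 15937 genes tested and a threshold of 0.05. Standard errors came from the F statistic, and 95% intervals from the t distribution with the fit's degrees of freedom. CPM are TMM-scaled, and log2 CPM for correlations had a prior count of 2. DESeq2 1.42.0, limma-voom (limma 3.58.1), other scalings and filters, left-out libraries and a replicate block were alternatives. The edgeR step was tested on simulated data. Poisson intervals cover counting error only. No replicate pair agreed within sampling noise (chi-square per degree of freedom 28.8 to 219).

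Groups came from the sample titles. Named were all members, up to 3 genes per related list with the smallest p and at least 1 CPM, the 5 genes most like the CD3 mean, and Col15a1; other names were chosen after their values were seen. Of the genes this rule names, 2 are not reported here. The members and lists were chosen with earlier results of these data known.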

Additional observations from a re-analysis of the deposited data

How the results depend on the processing

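No member passed under any of the 15 alternatives, and all 10 were negative in 13 of them; the exceptions were the fit without KO 3 (9 of 10) and the fit without WT 2 and KO 3 (8 of 10). The median of the members ran from -0.99 to -0.17. The count of all genes called was 0 in the reported fit, 53 in DESeq2, 1 without WT 2 and KO 3, and 0 to 0 with each library left out in turn; for members it was 0 to 0. Without WT 2 and KO 3 the log2 fold change turned positive for Cd3e (0.33), Cd3g (0.028), Nptx2 (0.066), Il23r (0.021) and Klf6 (0.026). With each library left out it ran from -0.57 to 0.28 for Cd3e, -0.61 to 0.071 for Nptx2, -1.14 to 0.027 for Il23r and -0.23 to 0.028 for Klf6; the value past 0 came without KO 3 in each. At an unadjusted p under 0.05 a member appeared in 2 alternatives: Cd2 without KO 2 (edgeR adjusted p 0.726) and Il7r without WT 2 and KO 3 (edgeR adjusted p 0.456). Of all genes, 1099 of 16363 were under that level without KO 2. Without WT 2 and KO 3 it was 1613 of 15831, so 1 of 10 members in each fit did not stand out. Col15a1 passed in DESeq2 alone (adjusted p 0.00224).

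With the replicate block 0 genes and 0 members were called, all 10 members stayed negative and their median was -0.69. The deviations of same-numbered libraries correlated at 0.43, -0.68 and -0.58, and not every library correlated best with its own number, so the numbers do not pair the animals. Few counts limit the CD3 chains most: Cd3d in KO 3 rests on 5 counts.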
